A study of Homo sapiens with 12 samples.

Results

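The proteasome subunit genes were taken as the protein-coding genes whose RefSeq symbol, matched by Entrez gene number, is PSMA, PSMB, PSMC or PSMD followed by a number. The rule gave 39 genes, of which 37 were present among the 23922 genes of the tables, and all 37 passed the filter on low counts that left 18101 genes for testing. PSMA8 on chromosome 18, a testis-specific alpha subunit, and PSMB11 on chromosome 14, the catalytic beta subunit of thymic cortical cells, had no row in any of the 12 tables, which list a transcript from an FPKM of 0.01 upward. The 37 genes comprised 7 alpha subunits of the 20S core, 7 constitutive beta subunits, 3 immune beta subunits, 6 ATPases of the 19S regulatory particle, 11 non-ATPase 19S subunits and 3 chaperones of 19S base assembly.

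Total RNA was sequenced from hepatocyte-directed cells of H9, a human embryonic stem cell line. There were 6 groups of 2 libraries: day 19 cells given 30 nM T4, day 19 cells given 30 nM T3, day 19 control cells in 0.1% DMSO, and the same 3 treatments at day 7. T4 is thyroxine, the hormone released in largest amount by the thyroid, and T3 is triiodothyronine, the more active form, which lacks an iodine that T4 carries. The labels call day 7 cells hepatoblasts and day 19 cells hepatocytes. They state a DMSO share for control cells only, and not when hormone was added or for how long. Whether both libraries of a group stem from separate cultures is not stated either, so the p-values below reflect library-to-library spread that may be technical.

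Total expected counts were 18363549 to 19306181 per library. The label of day 19 cells was set against 8 hepatocyte markers: their summed level was 5280 to 5830 CPM (counts scaled to library size with TMM factors) in T4 libraries, 1610 to 2210 CPM in T3 libraries and 54100 to 58800 CPM in DMSO libraries. In DMSO libraries most of it was AFP, the fetal counterpart of albumin, at 32900 and 35500 CPM. In hormone-treated libraries AFP was the smaller part of the sum, at 1690 and 2020 CPM with T4 and 430 and 642 CPM with T3. ALB, which encodes albumin, stood at 3.14 and 2.5 CPM with T4, 0.898 and 1.57 CPM with T3, and 17.8 and 20.8 CPM in DMSO, and CYP3A4 averaged under 1 CPM in each of the 3 day 19 groups. The 10 most abundant genes took 6.93% to 6.94% of counts in hormone-treated day 19 libraries, 11.7% and 12.07% in day 19 DMSO libraries, and 5.48% to 5.86% at day 7. Every count of changed proteasome genes was the same with TMM factors recomputed without the 10 genes most abundant over all libraries. Scaling to total counts alone moved several of these counts, as given below.

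The proteasome degrades proteins that carry ubiquitin chains. Its 20S core is a barrel of alpha rings, which gate the entrance, around beta rings, in which PSMB6, PSMB7 and PSMB5 carry the catalytic sites of the beta1, beta2 and beta5 positions. PSMB9, PSMB10 and PSMB8 can take the places of these 3 subunits, most of all after interferon gamma, and the resulting immunoproteasome alters the peptides offered on MHC class I. The 19S particle binds ubiquitin chains, removes them and unfolds the substrate with its ring of ATPases.

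The promoters of the 3 immune genes and of PSMC4, the 19S ATPase with the largest hormone response at day 19, are given because the results turn on these genes. Each window runs from 250 bases before an annotated start to 50 bases after it, from RefSeq on GRCh38.p14, and PSMB8 has 2 such windows. Capitals mark matches to any of 4 motifs searched on both strands: TGACNNNGC, an antioxidant response element, CCAAT, GAAANNGAA, the core of an interferon-stimulated response element, and TTCNNNGAA, a STAT site.
PSMB8, chr6:32844630-32844929, minus strand: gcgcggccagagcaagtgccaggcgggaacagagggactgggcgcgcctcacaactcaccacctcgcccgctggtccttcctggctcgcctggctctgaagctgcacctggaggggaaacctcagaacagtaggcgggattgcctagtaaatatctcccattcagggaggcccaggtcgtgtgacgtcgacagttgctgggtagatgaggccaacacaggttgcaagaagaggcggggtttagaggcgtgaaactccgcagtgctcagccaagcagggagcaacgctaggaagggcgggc
PSMB8, chr6:32843998-32844297, minus strand: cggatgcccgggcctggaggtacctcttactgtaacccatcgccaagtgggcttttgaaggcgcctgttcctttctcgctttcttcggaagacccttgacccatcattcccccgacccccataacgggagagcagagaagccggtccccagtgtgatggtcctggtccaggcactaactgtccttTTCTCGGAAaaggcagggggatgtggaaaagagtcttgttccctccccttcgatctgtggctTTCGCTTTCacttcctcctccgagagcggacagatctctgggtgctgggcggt
PSMB9, chr6:32853942-32854241, plus strand: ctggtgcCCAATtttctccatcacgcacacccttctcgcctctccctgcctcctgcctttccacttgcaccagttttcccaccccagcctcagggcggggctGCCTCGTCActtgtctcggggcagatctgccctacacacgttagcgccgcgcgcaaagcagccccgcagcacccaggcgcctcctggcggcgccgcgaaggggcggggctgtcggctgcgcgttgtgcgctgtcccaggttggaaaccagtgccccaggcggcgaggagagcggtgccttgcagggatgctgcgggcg
PSMB10, chr16:67936801-67937100, minus strand: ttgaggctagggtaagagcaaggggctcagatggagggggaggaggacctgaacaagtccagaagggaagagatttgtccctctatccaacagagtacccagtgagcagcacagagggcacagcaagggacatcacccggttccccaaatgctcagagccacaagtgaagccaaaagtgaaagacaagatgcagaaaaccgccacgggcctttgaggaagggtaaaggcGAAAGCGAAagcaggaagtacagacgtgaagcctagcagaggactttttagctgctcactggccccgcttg
PSMC4, chr19:39970915-39971214, plus strand: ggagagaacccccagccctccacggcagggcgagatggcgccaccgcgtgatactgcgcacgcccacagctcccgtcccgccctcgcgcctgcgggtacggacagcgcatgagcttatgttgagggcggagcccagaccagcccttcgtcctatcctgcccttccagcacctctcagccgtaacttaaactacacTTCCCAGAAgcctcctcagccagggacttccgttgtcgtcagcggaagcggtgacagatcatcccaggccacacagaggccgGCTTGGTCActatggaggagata

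The first PSMB8 window held none of the 4 motifs. Distances below run from the start to the leftmost letter of a match as printed. The second held TTCTCGGAA, a match to the STAT site, 65 bases before the start and TTCGCTTTC, the interferon element read on the other strand, 3 bases before it. PSMB10 had the interferon element GAAAGCGAA 21 bases before its start. PSMB9 had a CCAAT box 243 bases before its start and an antioxidant element on the other strand 148 bases before it, and neither interferon-related motif. PSMC4 held a STAT site 55 bases before its start and an antioxidant element on the other strand 28 bases after it.

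Among 35116 RefSeq windows of 27305 genes, 13.3% held TGACNNNGC, 34.6% CCAAT, 8.11% GAAANNGAA and 7.66% TTCNNNGAA. The 34 subunit genes with an entry had 41 windows, of which 10 (24.4%) held the antioxidant element, 18 (43.9%) CCAAT, 5 (12.2%) the interferon core and 7 (17.1%) the STAT site. The antioxidant element was in windows of PSMA4, PSMB3, PSMB9, PSMC4, PSMC5, PSMD1, PSMD3, PSMD5, PSMD9 and PSMD12. A match describes letters in a window and is not evidence of binding.

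PSMB8 (Entrez gene 5696, chr6:32840717-32844679) and PSMB9 (Entrez gene 5698, chr6:32854192-32859851) lie in the MHC class II region among the genes of the peptide transporter. TAP2 lies on one side at chr6:32821831-32838739, and TAP1 lies between them at chr6:32845209-32853704. TAP1 and PSMB9 are transcribed away from each other with 487 bases between them. PSMB10 (Entrez gene 5699, chr16:67934506-67936850) lies apart from this cluster. Some exons of PSMB8 overlap PSMB9 and the antisense gene PSMB8-AS1 in the GENCODE annotation of the same build, and the strand of counting is not given in the sources used here, so reads from the shared stretches could not be assigned with certainty.

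PSMB8, the immune beta5 subunit, was higher at day 19 than at day 7 under every treatment, and higher with either hormone than in DMSO at day 19. It stood at 30.8 and 23.0 CPM in day 19 T4 libraries, 26.9 and 29.1 CPM in day 19 T3 libraries, and 11.9 and 12.0 CPM in day 19 DMSO libraries. At day 7 it stood at 2.85 and 3.02 CPM with T4, 3.19 and 2.64 CPM with T3, and 1.93 and 1.30 CPM in DMSO. No hormone-treated library overlapped the DMSO libraries of its day, and no day 19 library overlapped day 7.

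PSMB9, the immune beta1 subunit, had the fewest counts of the 37 in every library. It had 11.4 and 9.55 CPM in day 19 T4 libraries, 9.10 and 10.3 CPM in day 19 T3 libraries, and 3.76 and 3.83 CPM in day 19 DMSO libraries. At day 7 it had 0.442 and 0.390 CPM with T4, 0.637 and 0.440 CPM with T3, and 0.337 and 0.240 CPM in DMSO. The day 7 values rest on 9 and 8 counts with T4, 13 and 9 with T3, and 7 and 5 in DMSO, so that differences among the day 7 groups were hardly measurable at this depth.

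PSMB10, the immune beta2 subunit, was the highest of the 3 per length (FPKM) at day 7 and moved least. It had 30.1 and 26.5 CPM in day 19 T4 libraries, 28.9 and 33.3 CPM in day 19 T3 libraries, and 19.3 and 22.4 CPM in day 19 DMSO libraries. At day 7 it had 10.5 and 10.1 CPM with T4, 11.1 and 10.6 CPM with T3, and 9.73 and 8.80 CPM in DMSO. The order of groups was alike for the 3 genes: both day 19 hormone groups at the top and overlapping each other, then day 19 DMSO, then the 3 day 7 groups.

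The constitutive partners at the same positions did not follow this order. PSMB5, the beta5 subunit, had 147 and 132 CPM in day 19 T4 libraries, 137 and 144 CPM with T3 and 146 and 151 CPM in DMSO, against 144 and 138, 138 and 137, and 128 and 126 CPM in day 7 T4, T3 and DMSO libraries. PSMB6, the beta1 subunit, had 110 and 94.5 CPM in day 19 T4 libraries, 101 and 99.6 CPM with T3 and 86.0 and 89.9 CPM in DMSO, against 111 and 111, 113 and 116, and 103 and 101 CPM in the same order at day 7. PSMB7, the beta2 subunit, had 130 and 121 CPM in day 19 T4 libraries, 137 and 135 CPM with T3 and 100 and 116 CPM in DMSO, against 130 and 134, 130 and 129, and 133 and 131 CPM at day 7. PSMB5 overlapped between hormone and DMSO at day 19, whereas PSMB6 and PSMB7 were lower in both DMSO libraries than in any hormone library of that day.

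**Figure D1:**
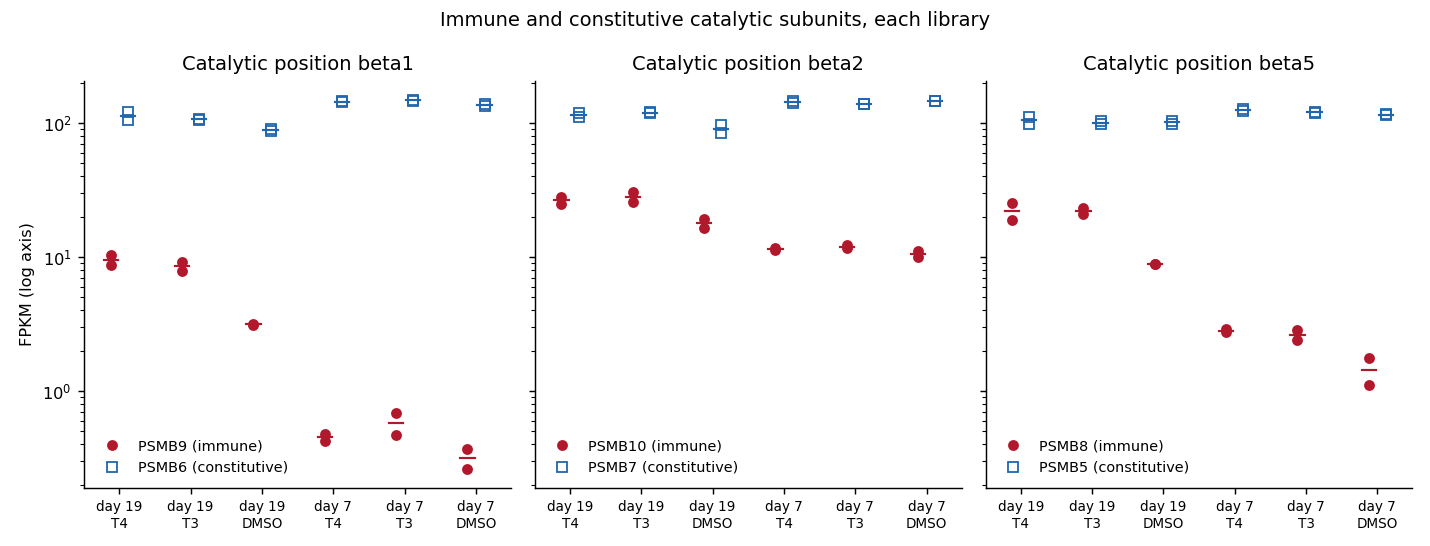
FPKM (log axis) of the immune (filled circles) and constitutive (open squares) subunit of each catalytic position in every library, with short lines at the mean of 2 libraries, for day 19 T4, T3 and DMSO and day 7 T4, T3 and DMSO. PSMB9 and PSMB8 are highest with hormone at day 19, at 10.3 and 8.71 and at 25.2 and 19.0 FPKM with T4, while every constitutive value lies between 83.9 and 150 FPKM, above its immune counterpart.

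At day 19, T4 raised PSMB9 2.76-fold over DMSO (log2 fold change 1.47, SE 0.165, adjusted p = 4.83e-06 in edgeR's quasi-likelihood test with Benjamini-Hochberg adjustment). T3 raised it 2.56-fold (log2 1.35, SE 0.167, adjusted p = 7.34e-06). PSMB8 was 2.25-fold higher with T4 (log2 1.17, SE 0.141, adjusted p = 9.27e-06) and 2.35-fold higher with T3 (log2 1.23, SE 0.14, adjusted p = 3.4e-06). PSMB10 was 1.36-fold higher with T4 (log2 0.44, SE 0.102, adjusted p = 0.00278) and 1.49-fold higher with T3 (log2 0.58, SE 0.102, adjusted p = 0.000219). T4 and T3 are set against the same DMSO libraries, so these pairs of values are not independent.

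At day 7, PSMB8 was 1.8-fold higher with T3 than in DMSO (log2 0.85, SE 0.247, adjusted p = 0.0308), a call that held without the first DMSO library (adjusted p = 0.0393) and was lost without the second (0.25), the first T3 library (0.199) or the second (0.0604). With T4 its log2 fold change of 0.86 (SE 0.247) missed the threshold at an adjusted p of 0.0535, and it passed in DESeq2 at 0.042. PSMB9 did not pass with T4 (0.52, adjusted p = 0.632) or with T3 (0.88, adjusted p = 0.223), nor did PSMB10 with T4 (0.15) or with T3 (0.23, adjusted p = 0.23). The test of the difference between the hormone effects at day 19 and day 7 did not call any of the 3 genes in edgeR: for PSMB8 the difference was 0.31 for T4 and 0.38 for T3 on the log2 scale, with a 95% interval of -0.25 to 1.01 for T3. For PSMB9 it was 0.95 for T4 and 0.47 for T3, and for PSMB10 0.29 and 0.35 in the same order. In limma on log2(FPKM + 1), 3 of these differences passed for T3 (0.64 for PSMB8, 0.93 for PSMB9 and 0.45 for PSMB10) and 2 for T4 (1.2 for PSMB9 and 0.43 for PSMB10). The added 1 is above every day 7 FPKM of PSMB9 (0.26 to 0.68) and near those of PSMB8 (1.1 to 2.89). It therefore shrinks their day 7 hormone effects and widens the difference between the days.

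From day 7 to day 19 the immune genes had the largest differences of the 37. PSMB9 was 24.8-fold higher at day 19 in T4 (log2 4.63), 17.8-fold in T3 (log2 4.15) and 12.9-fold in DMSO (log2 3.68, adjusted p = 2.02e-08), all against few counts at day 7. PSMB8 was 9.13-fold higher in T4, 9.61-fold in T3 and 7.39-fold in DMSO (log2 2.88, SE 0.202, adjusted p = 6.83e-09). PSMB10 was 2.74-fold higher in T4, 2.87-fold in T3 and 2.25-fold in DMSO (log2 1.17, adjusted p = 2.76e-07). All of these differences were also called when libraries were scaled to total counts alone.

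On the FPKM scale, which allows levels of different genes to be compared, the immune subunit took a larger share of each catalytic position at day 19. At beta5, PSMB8 made up 18.6% and 16.0% of PSMB8 plus PSMB5 in day 19 T4 libraries, 17.5% and 18.3% with T3, and 8.26% and 7.81% in DMSO, against 2.12% and 2.29%, 2.36% and 1.91%, and 1.49% and 0.947% in day 7 T4, T3 and DMSO libraries. At beta1, PSMB9 made up 7.89% and 7.67% with T4, 6.88% and 7.84% with T3 and 3.47% and 3.39% in DMSO at day 19, and 0.192% to 0.46% in every day 7 library. At beta2, PSMB10 made up 19.2% and 18.3% with T4, 17.8% and 20.2% with T3 and 16.4% and 16.5% in DMSO at day 19, and 6.42% to 8.02% at day 7. The hormone libraries lay above the DMSO libraries of day 19 at all 3 positions, by the smallest margin at beta2, and no immune subunit reached its constitutive partner in any library. With 2 libraries against 2, an exact two-sided permutation test cannot go below a p of 0.333, so the shares are a description. In bulk RNA, fewer cells with a transcript and less of it in each cell cannot be told apart.

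**Figure D2:**
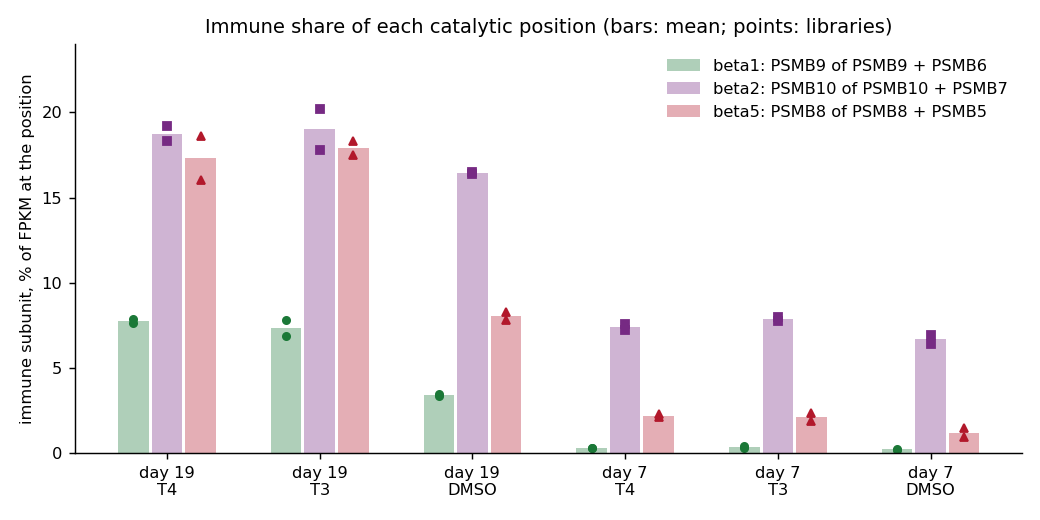
Share of the immune subunit in the summed FPKM of each catalytic position (percent), with bars at the mean of 2 libraries and points for the libraries. The mean shares at beta5, beta2 and beta1 were 17.3%, 18.7% and 7.78% in day 19 T4 cells, 17.9%, 19.0% and 7.36% in day 19 T3 cells, and 8.04%, 16.5% and 3.43% in day 19 DMSO cells, with 7.89% or less at day 7.

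PSMB8 was listed with a 1135-base and a 1602-base transcript. The 1135-base transcript took 96.0% and 96.0% of its FPKM in day 19 T4 libraries, 92.5% and 94.6% with T3 and 92.2% and 91.2% in DMSO. At day 7 it took 94.2% and 90.7% with T4, 78.0% and 78.2% with T3, and 75.6% and 56.4% in DMSO. The longer form thus had its largest share in day 7 DMSO cells, where the gene had 40 and 27 counts in all. Among other members, PSMD1 had a noncoding transcript of 3159 bases that took 30.0% and 27.3% in day 19 T4 libraries, 15.7% and 7.69% with T3, and 0% and 11.9% in DMSO. At day 7 it took 8.36% and 0.193% with T4, 0% and 19.6% with T3, and 4.81% and 0% in DMSO. This share thus varied widely between libraries of a group, a spread that the summed gene values do not show.

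Immune cells also express the immunoproteasome, so 8 blood and immune markers were read beside it. Their summed level was 142 to 151 CPM in day 19 T4 libraries, 95.9 to 125 CPM with T3 and 216 to 228 CPM in DMSO, and 42.2 to 49.5 CPM over the day 7 libraries. It was thus lower with hormone than in DMSO at day 19, where PSMB8, PSMB9 and PSMB10 were higher, and it was higher at day 19 than at day 7, as they were. PTPRC, CD14 and CD3E, markers of leukocytes, monocytes and T cells, averaged under 1 CPM in every group, and CD3E was at 0 in day 19 T4 and day 7 DMSO cells. The 4 markers that passed the filter, CD74, HLA-DRA, CD68 and LYZ, moved unevenly. At day 19, 2 were lower with T4 (log2 fold changes of the 4 from -1.54 to 0.41) and 3 with T3 (-2.5 to 0.16). From day 7 to day 19 in DMSO, 3 were higher (-0.05 to 4). The sum of 5 endothelial markers was 102 to 125 CPM with T4, 116 to 118 CPM with T3 and 94.6 to 108 CPM in DMSO at day 19, and 42.9 to 75.4 CPM at day 7. Within that sum at day 19, CDH5 was higher with T4 (log2 1.08) and T3 (1.69), PECAM1 (-1.24 and -1.62) and TEK (-1.37 and -2.13) were lower, and KDR was lower with T3 (-0.43). Mesenchymal markers (6 genes) summed to 2780 to 3170, 1990 to 2720 and 5810 to 6080 CPM in day 19 T4, T3 and DMSO libraries and to 284 to 357 CPM at day 7. The part of these cell types, and of the lower hepatocyte markers under hormone, in the proteasome values was not tested.

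At day 19, the response reached well beyond the immune subunits. T4 raised 21 of the 37 genes and lowered 0, where 42.8% of all tested genes changed (21% higher and 21.9% lower). T3 raised 27 of 37 and lowered 0, where 52.3% changed (25.1% higher and 27.3% lower). None of the 37 fell with either hormone in edgeR, in DESeq2 or in limma, nor at an unadjusted p of at most 0.05 in edgeR. One exception came without the first day 19 DMSO library, when T3 raised 21 and lowered 1, PSMD10 (log2 -0.21, adjusted p = 0.0464). The median log2 fold change was 0.17 over the members against 0 over all tested genes with T4, and 0.28 against -0.03 with T3. In limma on log2(FPKM + 0.1), T4 raised 32 of 37, in a fit that called 46.8% of all tested genes, 67.2% of them higher, and put the median of all tested genes at 0.123. Fitted on the day 19 libraries alone, T4 raised 15 and T3 25 of 37, beside 37.2% and 48.3% of all tested genes called.

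Of the 7 alpha subunits, T4 raised 2 and T3 raised 4. PSMA6, an alpha subunit of the ring that gates the core, had 148 and 139 CPM with T4, 157 and 159 CPM with T3, and 105 and 105 CPM in DMSO. Its log2 fold change was 0.44 with T4 (adjusted p = 1.63e-05) and 0.58 with T3 (SE 0.0564, adjusted p = 6.08e-07). PSMA3 followed at 0.39 with T4 and 0.38 with T3. PSMA4 (0.28) and PSMA7 passed with T3, PSMA7 at 183 and 184 CPM with T3 against 152 and 170 CPM in DMSO (log2 0.19, SE 0.0633, adjusted p = 0.0231), which was lost without the first DMSO library or either T3 library (adjusted p up to 0.225). PSMA1, PSMA2 and PSMA5 did not pass, with log2 fold changes of 0.02 to 0.14 with T4 and 0.04 to 0.16 with T3.

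Of the 7 constitutive beta subunits, T4 raised 3 and T3 raised 4. PSMB7 rose by 0.22 with T4 (adjusted p = 0.0156) and 0.33 with T3, and PSMB6 by 0.22 with T4 (adjusted p = 0.0166) and 0.19 with T3 (SE 0.0663, adjusted p = 0.0245). The PSMB6 calls were lost without the first DMSO library or the first library of the hormone (adjusted p up to 0.236 with T4 and 0.122 with T3), and so was that of PSMB7 with T4 (up to 0.187). PSMB2, a noncatalytic ring subunit, rose by 0.19 with T4 and 0.26 with T3, and PSMB1 passed with T3 (0.23) and not with T4 (0.14). PSMB3 and PSMB4, also noncatalytic, and the catalytic PSMB5 did not pass, PSMB5 at -0.09 with T4 and -0.08 with T3.

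Of the 6 ATPases, T4 raised 4 and T3 raised 5. PSMC4 had 126 and 122 CPM with T4 and 142 and 146 CPM with T3, against 84.7 and 91.0 CPM in DMSO. It was 1.41-fold higher with T4 (log2 0.49, adjusted p = 5.92e-06) and 1.64-fold higher with T3 (log2 0.71, SE 0.0567, adjusted p = 7.26e-08). PSMC5 had 91.1 and 90.4 CPM with T4 and 93.2 and 94.6 CPM with T3, against 62.9 and 67.2 CPM in DMSO, a log2 fold change of 0.48 (adjusted p = 6.74e-06) and 0.53 (SE 0.056, adjusted p = 1.52e-06). The hormone and DMSO libraries of both genes did not overlap. Both had the largest ATPase changes in these same libraries, so the lack of overlap adds nothing to the calls. PSMC1 rose by 0.28 and 0.36 and PSMC3 by 0.26 and 0.29 with T4 and T3, PSMC2 passed with T3 (0.22) and not with T4 (0.10), and PSMC6 passed with neither (0.13 each).

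Of the 11 non-ATPase 19S subunits, T4 raised 9 and T3 raised all 11. PSMD6, a lid subunit, had 67.7 and 67.1 CPM with T4 and 73.7 and 77.6 CPM with T3, against 48.2 and 52.6 CPM in DMSO, a log2 fold change of 0.42 (adjusted p = 0.000108) and 0.59 (SE 0.065, adjusted p = 2.56e-06). Other lid subunits rose by 0.27 and 0.41 (PSMD11), 0.28 and 0.35 (PSMD7), 0.17 and 0.29 (PSMD13), 0.15 and 0.26 (PSMD8) and 0.14 and 0.25 (PSMD3) with T4 and T3. PSMD14, the deubiquitinase of the lid, rose by 0.25 and 0.37, PSMD4, a ubiquitin receptor, by 0.29 and 0.32, and PSMD2, a scaffold of the base, by 0.20 and 0.33 with T4 and T3.

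The smallest calls with T4 were PSMD3, at 212 and 211 CPM against 193 and 193 CPM in DMSO (SE 0.0482, adjusted p = 0.0344), and PSMD8, at 221 and 207 CPM against 189 and 195 CPM (SE 0.0522, adjusted p = 0.0284). Leaving out any of the 4 libraries ended the PSMD3 call with T4 (adjusted p = 0.088 to 0.099), and leaving out the first DMSO or first T4 library ended that of PSMD8 (up to 0.197). PSMD1, the other base scaffold, and the lid subunit PSMD12 passed with T3 (0.28 and 0.20) and not with T4 (0.11 and 0.08).

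The 3 chaperones of base assembly, PSMD5, PSMD9 and PSMD10, did not rise. PSMD10, known as gankyrin, had 38.7 and 38.2 CPM with T4, 37.4 and 38.0 CPM with T3, and 40.1 and 43.8 CPM in DMSO. PSMD5 had 33.3 and 31.4 CPM with T4, 31.7 and 33.2 CPM with T3, and 35.5 and 35.9 CPM in DMSO. Hormone libraries of both genes lay below the DMSO libraries, at log2 fold changes of -0.12 (T4) and -0.15 (T3) for PSMD10 and -0.14 each for PSMD5, and none of these passed. PSMD9 stood at -0.11 and -0.06.

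**Figure D3:**
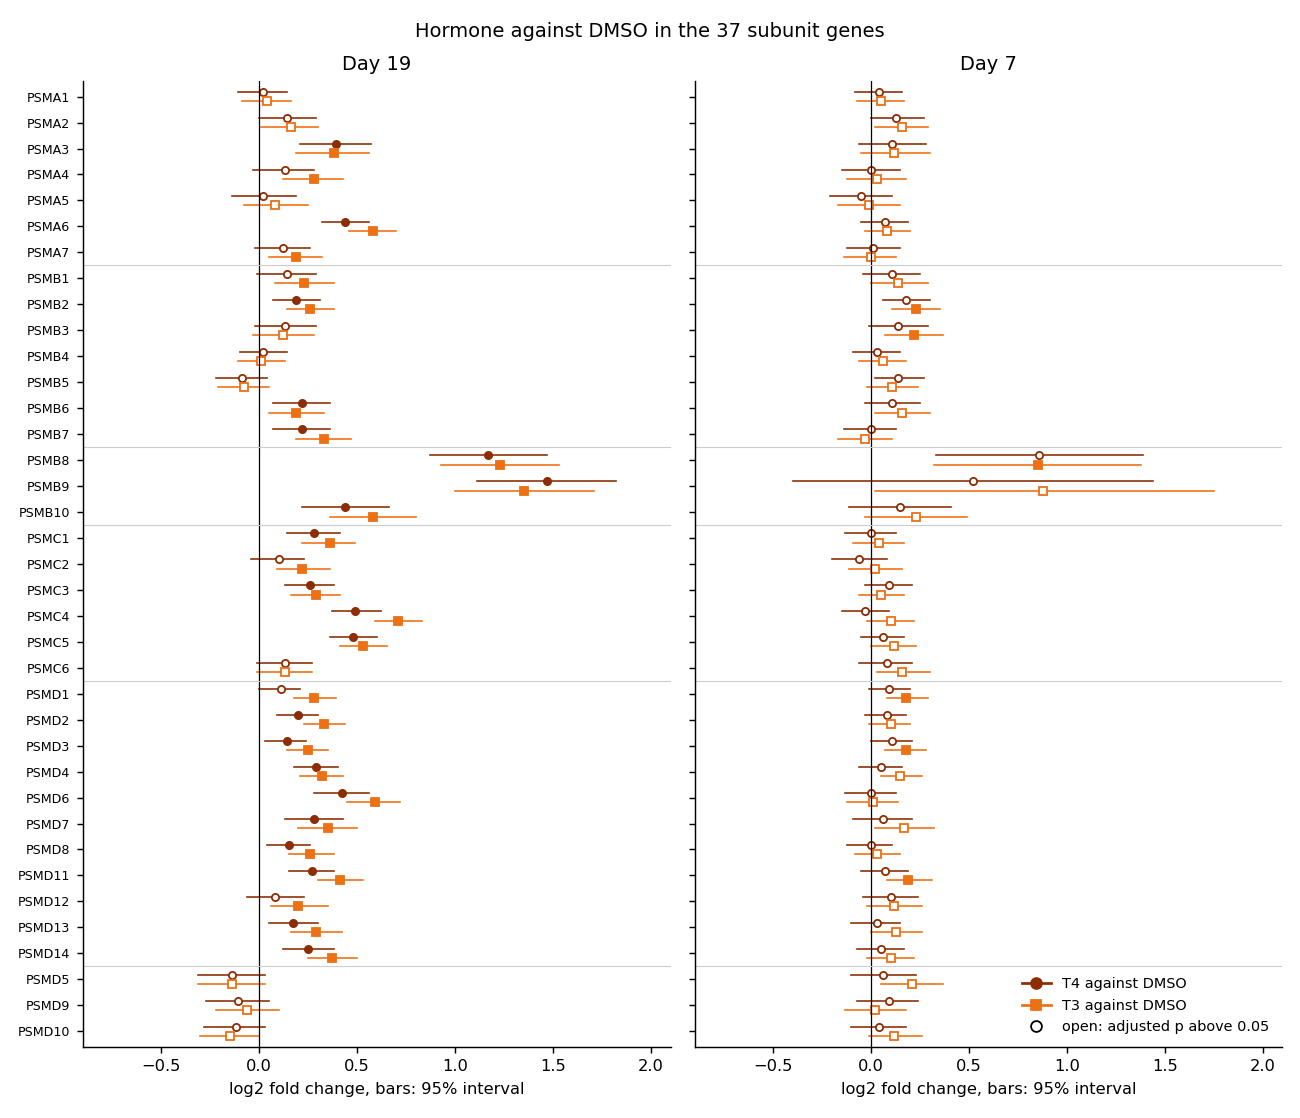
Log2 fold change of T4 (circles) and T3 (squares) against DMSO in the 37 genes at day 19 and day 7, with 95% intervals and open symbols where the adjusted p is above 0.05. At day 19, PSMB8 and PSMB9 lie above 1, most other 20S and 19S genes lie between 0 and 0.71, and the 3 base chaperones lie below 0. At day 7, 6 symbols are filled, all of T3.

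At day 7, T3 raised 6 of the 37 genes and lowered 0, where 16% of all tested genes changed (9.45% higher and 6.54% lower). Beside PSMB8 these were PSMB2, at 108 and 112 CPM with T3 against 95.3 and 92.5 CPM in DMSO (log2 0.23, SE 0.0549, adjusted p = 0.0105), PSMB3 (0.22, adjusted p = 0.047), PSMD11 (0.19, adjusted p = 0.0257), PSMD1 and PSMD3. PSMD1 had 132 and 133 CPM with T3 against 115 and 118 CPM in DMSO (log2 0.18, SE 0.0492, adjusted p = 0.0205). PSMD3 had 178 and 172 CPM with T3 against 156 and 153 CPM in DMSO (log2 0.18, SE 0.0482, adjusted p = 0.0215). The T3 and DMSO libraries of PSMB2, PSMD1 and PSMD3 did not overlap, but these genes were named from calls in the same libraries.

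The day 7 count depended on single libraries. It was 1 without the first DMSO library, 0 without the second, 2 without the first T3 library and 0 without the second. Fitted on the day 7 libraries alone, where replicates vary less, T3 raised 15 of the 36 members tested there, beside 31% of all tested genes called, 52.6% of them higher. None fell in edgeR (0 at an unadjusted p of at most 0.05), DESeq2 or limma, and 13 rose at an unadjusted p of at most 0.05. Marker lists moved with T3 at day 7 too. Of 5 pluripotency markers, 4 were higher (median log2 1.45), with a summed level of 2100 to 2140 CPM with T3 against 1360 to 1380 CPM in DMSO. Of 5 markers of dividing cells, 4 were higher (median 0.33), and of 8 hepatocyte markers 4 and of 5 endothelial markers 4 were lower (medians -0.54 and -0.83). Their part in the T3 values at day 7 was not tested.

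T4 changed 0 of the 37 genes at day 7 in edgeR, where 6.43% of all tested genes changed (3.91% higher and 2.52% lower). At an unadjusted p of at most 0.05 there were 4, all higher. DESeq2 called 1 gene, PSMB8, as did limma on log2(FPKM + 0.1) and on log2(FPKM + 1), and the fit on day 7 libraries alone called 5 of 36, beside 20.1% of all tested genes. With T4 4 of the 5 pluripotency markers were also higher at day 7 (median 0.90), 2 of 5 markers of dividing cells were higher, and 4 of 8 hepatocyte and 4 of 5 endothelial markers were lower. The median log2 fold change was 0.07 with T4 and 0.12 with T3 over the members, and 0.01 over all tested genes with each.

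The hormone effect differed between the days for part of the genes. The T4 effect was larger at day 19 than at day 7 for 6 of 37 genes and smaller for 0, where 27.8% of all tested genes differed (12.4% higher and 15.3% lower), and 11 were larger and 1 smaller at an unadjusted p of at most 0.05. The T3 effect was larger at day 19 for 11 of 37 and smaller for 2, where 38% of all tested genes differed (17.1% higher and 20.9% lower). Among the called genes PSMC4 had the largest difference, 0.52 for T4 and 0.61 for T3, with 90.5 and 86.4 CPM in day 7 T4 libraries, 95.1 and 98.6 CPM with T3 and 90.5 and 89.9 CPM in DMSO. The 2 genes with a smaller T3 effect at day 19 were PSMD5 (-0.35) and PSMD10 (-0.28), and both calls were absent in DESeq2 and limma. DESeq2 gave 6 larger and 0 smaller for T4 and 12 and 0 for T3, and limma on log2(FPKM + 0.1) gave 22 and 0 for T4 and 21 and 0 for T3, beside 31.6% and 39.4% of all tested genes called, 68.3% and 57.8% of them higher. Without any 1 of the 4 day 7 libraries in the T3 contrast, 7 or 8 genes were called in place of 13.

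T4 and T3 were compared directly at their common dose of 30 nM on each day, which makes 2 comparisons between the hormone and its form with an iodine less. At day 19, 2 of 37 genes were lower with T4, where 15.7% of all tested genes changed (7.41% higher and 8.31% lower). These were PSMC4 (log2 -0.22, SE 0.0554, 95% interval -0.34 to -0.10, adjusted p = 0.0157) and PSMD1, at 120 and 122 CPM with T4 against 135 and 139 CPM with T3 (-0.18, SE 0.0497, 95% interval -0.28 to -0.07, adjusted p = 0.0267). Neither gene was called in the fit on day 19 libraries alone, in limma, or with total counts as the scaling, and DESeq2 called 3. Without the second T4 library no gene was called, and without any 1 of the other 3 libraries 1 was. At an unadjusted p of at most 0.05, 9 genes were lower and 0 higher, and the median over members was -0.07, against 0.01 over all tested genes.

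The immune subunits did not pass in this comparison. The T4 minus T3 difference at day 19 had a 95% interval of -0.34 to 0.21 for PSMB8 (log2 -0.06), -0.21 to 0.43 for PSMB9 (0.11) and -0.35 to 0.07 for PSMB10 (-0.14), so that log2 differences of up to these sizes cannot be told from none. At day 7 the intervals were -0.46 to 0.48 for PSMB8 (0.01), -1.17 to 0.44 for PSMB9 (-0.37) and -0.33 to 0.18 for PSMB10 (-0.07). Of the 37 genes, 0 were called at day 7 in edgeR, DESeq2 or limma, where 0.365% of all tested genes changed (0.0387% higher and 0.326% lower), and 2 were lower with T4 at an unadjusted p of at most 0.05.

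Between the days, the members outside the immune class moved in both directions with TMM scaling, and the count depended on the scaling. In DMSO, 11 of 37 genes were higher and 14 lower at day 19 than at day 7 with TMM scaling, where 72.4% of all tested genes changed (37.6% higher and 34.9% lower). In T4 the counts were 13 higher and 11 lower, where 71.9% changed (35.5% higher and 36.4% lower), and in T3 14 higher and 12 lower, where 73.1% changed (35.2% higher and 37.9% lower). Without the 3 immune genes, all higher, they were 10 and 11 in T4, 11 and 12 in T3, and 8 and 14 in DMSO. Scaled to total counts alone, the counts over all 37 were 7 and 24 in T4, 7 and 23 in T3, and 3 and 32 in DMSO. Under that scaling the 3 higher in DMSO were PSMB8, PSMB9 and PSMB10. That scaling moves the median log2 fold change of all tested genes to -0.279 in T4, -0.350 in T3 and -0.404 in DMSO, a shift that all genes share. The members' median less that of all tested genes was 0.02 in T4, 0.105 in T3 and -0.053 in DMSO with TMM. In limma it was 0.001, 0.087 and -0.076 on log2(FPKM + 0.1) and -0.094, -0.035 and -0.201 on log2(FPKM + 1), in the same order, so its sign in T4 and T3 cells depended on the setting.

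Under both scalings, PSMB8, PSMB9 and PSMB10 were higher at day 19 in all 3 treatments, and PSMC1, PSMC4, PSMD8 and PSMD13 were higher in T4 and in T3 cells. PSMC4 had a log2 fold change of 0.49 in T4 and 0.57 in T3 with TMM, and -0.04 in DMSO, where it did not pass. PSMD13 stood at 0.42 in T4, 0.43 in T3 and 0.27 in DMSO, PSMD8 at 0.42, 0.49 and 0.26, and PSMC1 at 0.42, 0.46 and 0.15. In DMSO the last 3 of these turn negative under total counts.

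Among the lowest at day 19, PSMC5 had 62.9 and 67.2 CPM in day 19 DMSO libraries against 107 and 106 CPM at day 7 (log2 -0.71, SE 0.0552, adjusted p = 2.24e-08). PSMA4 had 77.1 and 88.8 CPM in day 19 DMSO libraries against 130 and 126 CPM (log2 -0.62, SE 0.0712, adjusted p = 1.59e-06). PSMA2, another alpha subunit, had 95 and 87.8 CPM in day 19 T4 libraries against 129 and 138 CPM at day 7, and its log2 fold change was -0.55 in each of the 3 treatments. PSMD10 had 38.7 and 38.2 CPM in day 19 T4 libraries against 57.0 and 52.6 CPM (-0.51, adjusted p = 8.23e-06) and 37.4 and 38.0 CPM in day 19 T3 libraries against 57.1 and 58.9 CPM (-0.62, SE 0.0682, adjusted p = 9.85e-07). Day 19 and day 7 libraries of these 4 genes did not overlap. The genes were named as the lowest calls in these same libraries, so the lack of overlap adds nothing to the calls. Of the constitutive catalytic subunits, PSMB6 was lower in DMSO (-0.22) and in T3 (-0.19), PSMB7 was lower in DMSO (-0.29) but not called in T3 with TMM (0.07) where total counts gave -0.22, and PSMB5 was higher in DMSO with TMM (0.22, adjusted p = 0.00403) but lower with total counts (-0.18, adjusted p = 0.0129). The PSMB6 calls were lost without the first day 19 DMSO library (adjusted p = 0.0506) and without the second T3 library of either day (up to 0.0774).

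Markers of dividing cells moved with the day: 5 of them summed to 198 to 204 CPM in T4, 178 to 185 CPM in T3 and 173 to 196 CPM in DMSO at day 19, against 749 to 753, 774 and 634 to 646 CPM at day 7. Pluripotency markers (5 genes) summed to 89.4 to 92.9 CPM in T4, 88.1 to 89.8 CPM in T3 and 64.3 to 64.9 CPM in DMSO at day 19, against 1860 to 1890, 2100 to 2140 and 1360 to 1380 CPM at day 7. Their part in the day differences was not tested.

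**Figure D4:**
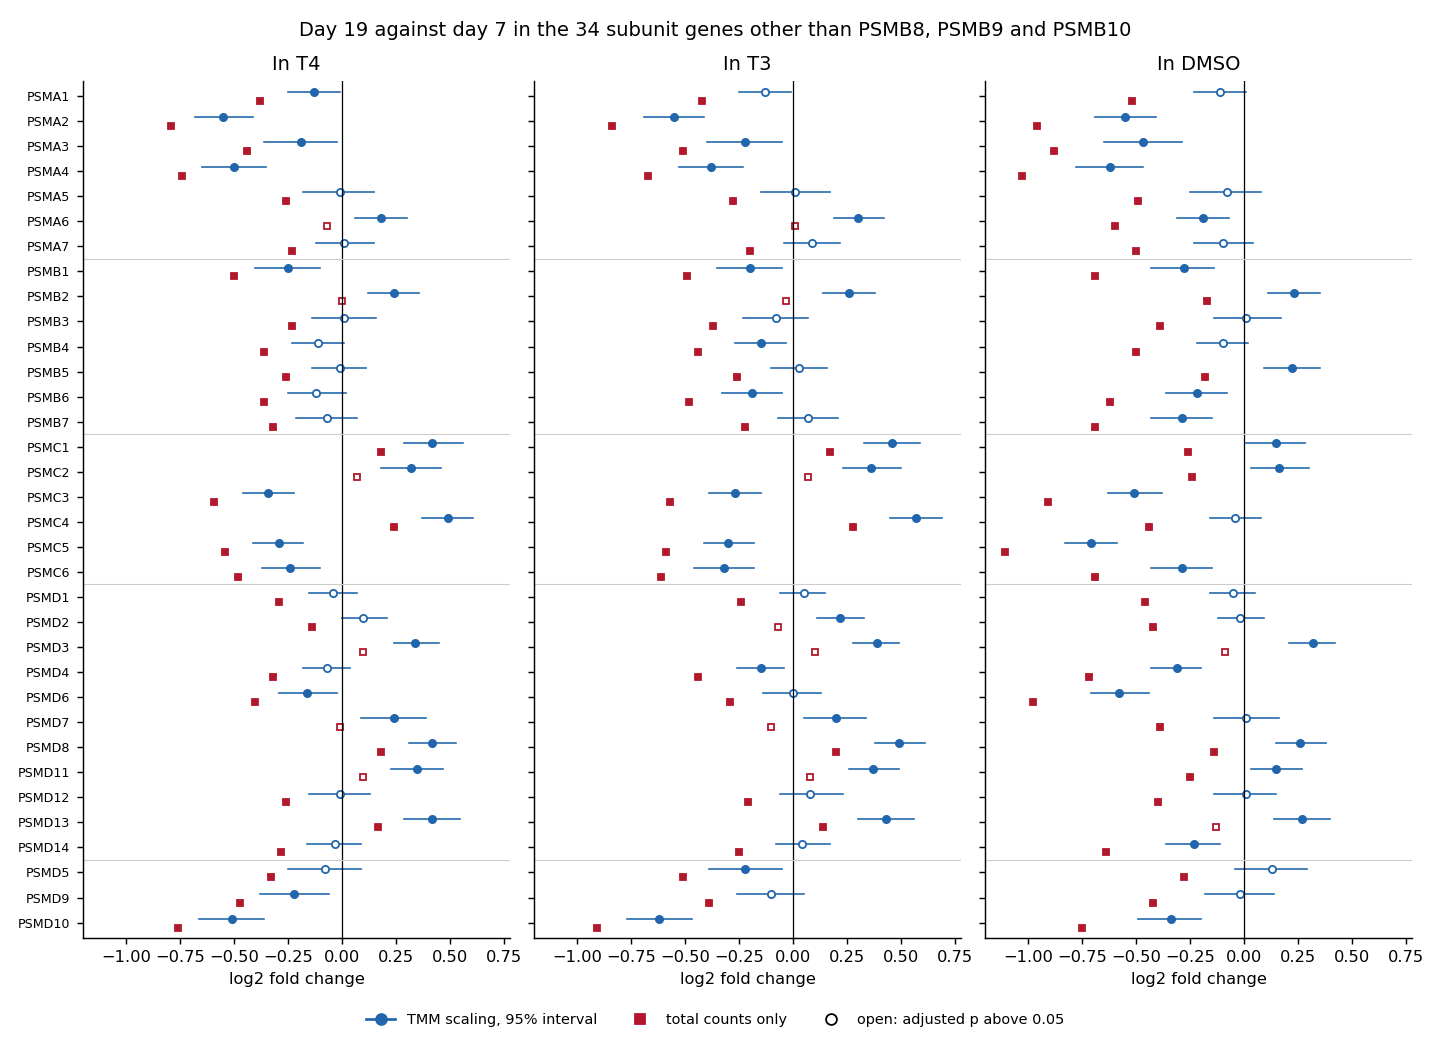
Log2 fold change of day 19 against day 7 for the 34 genes other than the immune subunits, in T4, T3 and DMSO cells, with TMM scaling (circles, 95% intervals) and with total counts only (squares), open where the adjusted p is above 0.05. With total counts all 34 squares of the DMSO panel lie below 0, while 4 of T4 and of T3 (PSMC1, PSMC4, PSMD8 and PSMD13) are filled and above 0.

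Levels of the genes were compared on the FPKM scale. Within the 20S core, PSMB4 was the highest of the 14 alpha and constitutive beta genes in every group, at 204, 195 and 184 FPKM in day 19 T4, T3 and DMSO cells and 260, 264 and 260 FPKM at day 7, and PSMA5 the lowest, at 17.0, 17.1 and 15.3 FPKM and 20.3, 20.7 and 21.4 FPKM. Although these subunits are present in equal number in the particle, their transcripts differed 11.4- to 12.8-fold. Among the 20 PSMC and PSMD genes, PSMD8 was highest at day 19, at 129, 135 and 106 FPKM with T4, T3 and DMSO. PSMD5, a chaperone of base assembly, was lowest in every group, at 8.57, 8.29 and 8.65 FPKM at day 19 and 10.7, 11.8 and 10.5 FPKM at day 7. PSMD12, a lid subunit, came next and was the lowest of the 19S subunits.

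Summed per class, the 7 constitutive beta genes reached 815 FPKM in day 19 T4 cells, 800 with T3 and 695 in DMSO, and the 3 immune genes 58.1 ± 7.83, 58.6 ± 6.00 and 29.8 ± 1.92 FPKM (SD, n = 2). At day 7 the immune genes summed to 14.7 ± 0.17 FPKM with T4, 15.1 ± 0.841 with T3 and 12.2 ± 1.27 in DMSO. The ATPases summed to 316, 324 and 232 FPKM at day 19 in T4, T3 and DMSO cells, the non-ATPase subunits to 679, 706 and 536 FPKM, and the base chaperones to 44.8, 43.3 and 44.6 FPKM. Hormone and DMSO groups differed least in this last class. All 37 genes together took 0.366% of counts with T4, 0.374% with T3 and 0.294% in DMSO at day 19 (SD 0.0127 each, n = 2), and 0.42%, 0.43% and 0.411% at day 7.

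**Figure D5:**
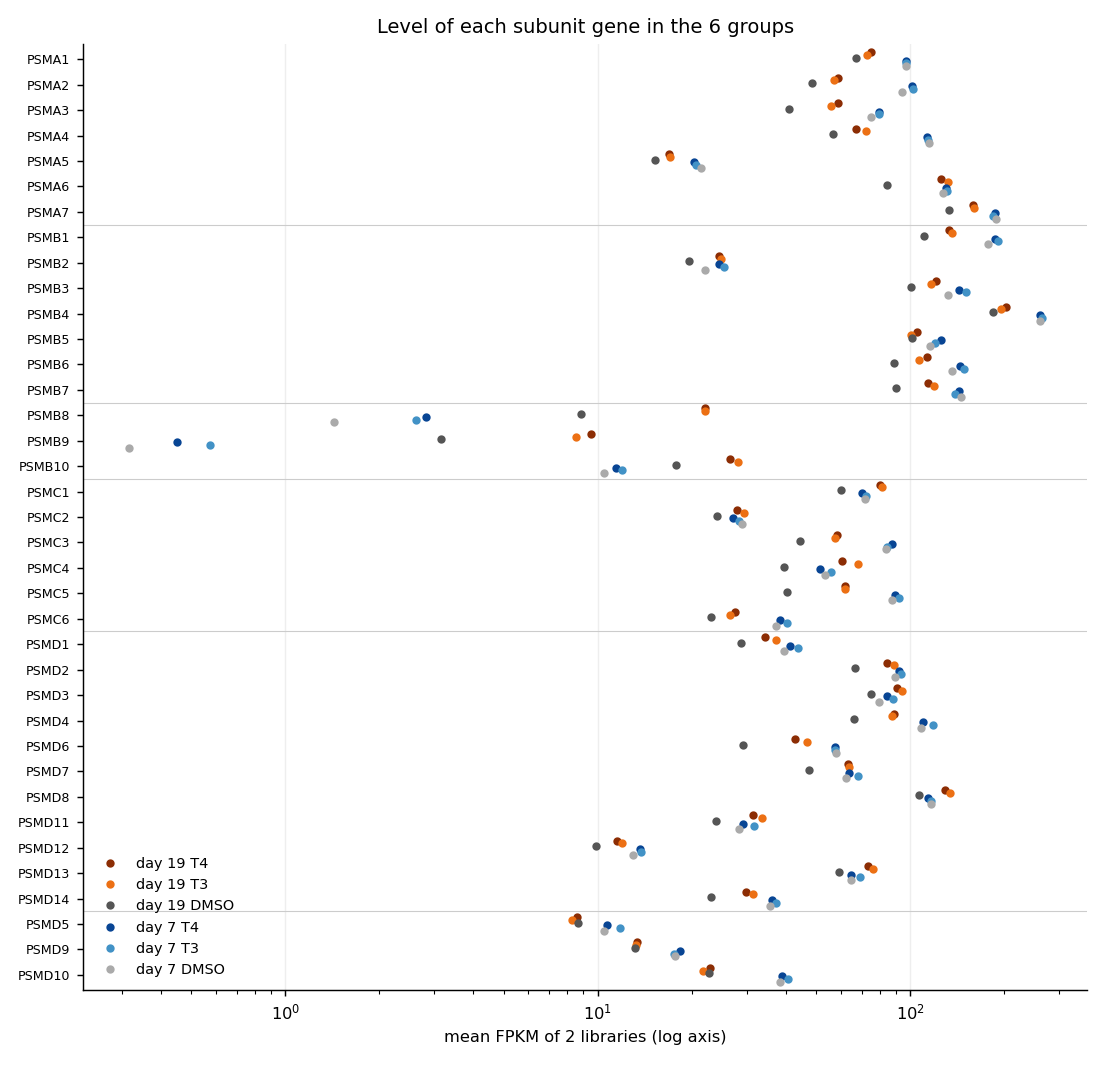
Mean FPKM (log axis) of the 37 genes in the 6 groups, 2 libraries each, ordered by class. PSMB4 is the highest 20S gene and PSMA5 the lowest of the alpha and constitutive beta genes, the groups of most genes lie close together, and those of PSMB9 and PSMB8 spread over more than a factor of 10.

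Genes that work with the proteasome were read from 6 lists chosen by function. At day 19, 42.8% of all tested genes changed with T4 and 52.3% with T3. The share of a list that changed was 20% to 75% with T4 and 60% to 75% with T3, over few genes a list. Of 5 activator and inhibitor genes at day 19, both hormones raised 3: PSME4, the activator PA200, at 127 and 146 CPM with T4, 207 and 177 CPM with T3 and 107 and 91.1 CPM in DMSO (log2 0.46 with T4, 0.96 with T3), PSME3 (0.42 and 0.51), which encodes the nuclear activator PA28 gamma, and PSMF1 (0.16 and 0.26). The interferon-inducible activators PSME1 and PSME2 did not pass. ADRM1, a ubiquitin receptor of the 19S particle, had 186 and 174 CPM with T4, 213 and 196 CPM with T3 and 124 and 123 CPM in DMSO (log2 0.54, adjusted p = 3.71e-06, and 0.73, adjusted p = 9.4e-08). Of its list of 4, UCHL5, a deubiquitinase bound to it, fell (-0.43 and -0.41), as did SEM1 (-0.28 and -0.22), a small lid subunit.

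Of 5 chaperones of core assembly, T4 raised 1, PSMG1 (0.29), and T3 raised 3, PSMG1 (0.36), PSMG2 (0.32) and PSMG4 (0.45). Of 6 genes in the transcriptional control of proteasome genes, T4 raised 2 and lowered 1 and T3 raised 3 and lowered 1. These shares, 50% and 66.7%, stand beside 42.8% and 52.3% of all tested genes. NFE2L1, which activates proteasome genes when the proteasome is inhibited, did not pass with T4 (-0.16) or T3 (-0.07). MAFG, a small partner of it and of NFE2L2, had 118 and 122 CPM with T4, 160 and 134 CPM with T3 and 72.4 and 72.0 CPM in DMSO (log2 0.73 and 1.03). VCP, an unfolding ATPase upstream of the proteasome, rose by 0.20 and 0.43, and NGLY1, a deglycosylating enzyme that NFE2L1 needs, fell by 0.35 with T4 and 0.25 with T3. Of 6 ubiquitin genes, T4 raised 1 and lowered 2 and T3 raised 2 and lowered 2. UBB, a polyubiquitin gene, fell with both hormones (-0.54 and -0.72), and of the ubiquitin-activating enzymes UBA6 (-0.25) was lower with T4 and UBA1 (-0.17) with T3.

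Of 14 genes of interferon signalling and peptide loading, T4 raised 6 and lowered 3 at day 19 and T3 raised 8 and lowered 2, with medians of 0.07 and 0.31 against 0 and -0.03 over all tested genes. TAP1, the neighbour of PSMB9, had 113 and 107 CPM with T4, 133 and 142 CPM with T3, and 40.3 and 40.6 CPM in DMSO (log2 1.45, adjusted p = 2.92e-10, and 1.76, adjusted p = 1.42e-11). TAP2 followed at 1.37 and 1.64. The transcription factors IRF1 (0.72 and 1.10), IRF9 (1.15 and 1.04) and NLRC5 (1.90 and 2.05) rose with both hormones. JAK2 (-0.60 and -0.61) and the receptor chain IFNGR2 (-0.29 and -0.38) fell, and TAPBP and ERAP1 did not pass. At day 7, TAP1 was higher with T4 (0.72) and with T3 (0.90). All 14 genes were higher at day 19 than at day 7 in DMSO, where 37.6% of all tested genes were higher. Their median was 1.54 on the log2 scale against 0 over all tested genes, with TAP1 at 3.12, TAPBP at 2.26 and JAK1 at 1.42. NFE2L1 was higher at day 19 by 1.07 in DMSO, PSME1 by 0.88, and PSME3 was lower (-0.97). Between the hormones at day 19, PSME4 (-0.50) and TAP1 (-0.31) were lower with T4 than with T3.

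Some values carry limits of annotation. Exons of PSMA2, PSMB8, PSMB9, PSMC1, PSMC5, PSMD1, PSMD6 and PSMD13 overlap a gene on the opposite strand (MRPL32 for PSMA2, FTSJ3 for PSMC5 and SIRT3 for PSMD13, among others), which unstranded counting would not separate. Annotated pseudogenes exist for 19 of the 39 genes, with 13 for PSMC1, so the levels of such genes are uncertain where reads could be shared.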

How the data were processed

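RNA of 12 libraries (6 groups of 2, given by the labels' day and treatment) was deposited as transcript tables. The authors deposited expected counts per transcript, not normalised, and FPKM values, a unit scaled to transcript length and library depth, both named per the file headers. Per the submitters' processing notes, the build was hg38 and the tools HISAT, Bowtie2 and RSEM, with no versions. The tables list transcripts with an FPKM of at least 0.01.

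Expected counts were summed per Entrez gene and rounded (Python 3.11.15, pandas 2.3.3, numpy 2.4.6), and FPKM values were summed. Of 23922 genes, 121 had no RefSeq symbol and held 0.103% to 0.145% of counts. Total counts were 18363549 to 19306181 a library, and intervals rest on the 18354986 to 19298550 counts a library that fell on tested genes. In R 4.3.3, edgeR 4.0.16 fitted all 12 libraries (TMM factors 0.855 to 1.133, filterByExpr, quasi-likelihood F test, 6 residual degrees of freedom, common biological coefficient of variation 5.42%), with Benjamini-Hochberg adjustment over 18101 genes and a call at an adjusted p of at most 0.05. SE is the size of the log2 fold change over the root of F, and 95% intervals use the residual and prior degrees of freedom. The fit was tested on simulated counts with the same spread in every group and few changed genes. That test did not cover the unequal spread between the days or the many changed genes found here. Contrasts were 11 in number.

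Spread exceeded sampling noise more at day 19 (chi-square per gene 4.80 to 8.27) than at day 7 (1.59 to 2.07), so the shared fit overstates day 7 spread and understates day 19 spread. No group's libraries agreed within sampling noise. Alternatives were DESeq2 1.42.0, limma 3.58.1 on log2(FPKM + 0.1) and log2(FPKM + 1), other scalings, filters, subsets and left-out libraries. Scaling to total counts was added after seeing the data. The 39 members, the related lists and the tests were chosen with earlier results of these data known. Named are the immune genes with their partners, the 2 largest and 2 smallest called changes of each contrast, and the 3 members of each related list with the smallest p, with others named to describe a class after their values were seen. The values of some genes that this rule names are not reported here.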

Additional observations from a re-analysis of the deposited data

Results flagged for a closer look

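The test of the difference between hormone effects at day 19 and at day 7 called 6 of the 37 genes (16.2%) for T4 and 13 (35.1%) for T3. Among all tested genes, 27.8% and 38% were called, so the members' shares were not above the shares of all genes. Effects are given as differences of log2 fold changes. The genes called for T4 were PSMC4 (0.52), PSMD6 (0.42), PSMC5 (0.42), PSMA6 (0.37), PSMC1 (0.28) and PSMD4 (0.24), all larger at day 19. For T3, larger at day 19, were PSMC4 (0.61), PSMD6 (0.57), PSMA6 (0.50), PSMC5 (0.41), PSMB7 (0.36), PSMC1 (0.31), PSMD14 (0.28), PSMD2 (0.24), PSMC3 (0.23), PSMD8 (0.23) and PSMD11 (0.22). Smaller at day 19 with T3 were PSMD5 (-0.35) and PSMD10 (-0.28), both base chaperones. PSMD5 rested on 34.8 and 40.8 CPM in day 7 T3 libraries against 32.2 and 33.3 CPM in DMSO, and its call was lost in 3 of the fits without a library. Those of PSMD4 with T4 and of PSMC1 with T4 were lost in 6 such fits each, and that of PSMD10 with T3 in 5. Day and labelled cell stage cannot be told apart in this design.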

How the results depend on the processing

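The count of changed members for T3 at day 7 (6) was 3 in DESeq2, 15 with day 7 libraries alone and 2 with total counts. For T4 at day 7 (0) it was 1 in DESeq2, 5 with day 7 libraries alone and 1 in limma with either pseudocount. For T4 at day 19 (21) it was 15 with day 19 libraries alone and 32 in limma at both pseudocounts and with no filter. For T3 at day 19 (27) it was 25 with day 19 libraries alone and 29 to 30 in limma. For T4 against T3 at day 19 (2) it was 5 with DESeq2 size factors and 0 with day 19 libraries alone, in the 3 limma fits and with total counts. For the T4 effect between days (6) it was 22, 22 and 19 in limma with pseudocounts 0.1, 1 and no filter, and 19 with total counts. For the T3 effect between days (13) it was 21 and 23 in limma and 20 with total counts. Left-out libraries gave 0 to 0 for T4 at day 7, 0 to 2 for T3 at day 7, 14 to 25 for T4 and 22 to 29 for T3 at day 19, 0 to 0 and 0 to 1 for T4 against T3 at day 7 and day 19, 19 to 22, 20 to 25 and 22 to 24 for day 19 against day 7 in T4, T3 and DMSO, and 4 to 9 and 7 to 18 for the T4 and T3 effects between days. The cause of these shifts was not tested.

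Immune shares from counts were 9.3%, 8.8% and 4.13% at beta1 in day 19 T4, T3 and DMSO cells, 0.375% in day 7 T4 cells, 16.1% at beta2 in day 19 DMSO cells, and 16.7%, 7.45% and 2.04% at beta5 in day 19 T3, day 19 DMSO and day 7 T4 cells. With 1 library left out they take the value of the other: at beta1 7.67% to 7.89%, 6.88% to 7.84% and 3.39% to 3.47% in day 19 T4, T3 and DMSO cells and 0.289% to 0.332%, 0.312% to 0.46% and 0.192% to 0.268% at day 7, at beta2 18.3% to 19.2%, 17.8% to 20.2% and 16.4% to 16.5%, and 7.22% to 7.6%, 7.76% to 8.02% and 6.42% to 6.95%, and at beta5 16.0% to 18.6%, 17.5% to 18.3% and 7.81% to 8.26%, and 2.12% to 2.29%, 1.91% to 2.36% and 0.947% to 1.49%.

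Of 88 gene results, settings other than left-out libraries gave 833 values, of which 749 kept direction and side of the threshold, 34 lost and 38 gained the call and 12 turned. The turned ones were PSMB5 from day 7 to day 19 in DMSO (-0.19 in the 3 limma fits, -0.18 with total counts) and in T3 (-0.25 and -0.26), and PSMB7 in T3 (-0.22), under settings that use no TMM factor. Left-out libraries gave 432 values, of which 58 lost and 5 gained a call and 0 turned. With total counts the share of higher among all called genes moved to 66.1% from 48.9% for T4 at day 19, to 62.5% from 47.1% for T4 against T3 at day 19, to 37.3%, 35.4% and 33.1% from 49.4%, 48.1% and 51.9% for the days in T4, T3 and DMSO, to 68.2% and 57.9% from 44.8% and 45% for the T4 and T3 effects between days, and to 47.9% from 59.1% for T3 at day 7.

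Libraries share replicate numbers across groups, but deviations of same-numbered libraries correlated at only -0.08 to 0.12 over 15 pairs of groups. The values thus showed no pairing by number, but cannot tell whether same-numbered libraries were handled together. With the replicate block, T4 at day 7 had 1 call in place of 0, PSMB8 (adjusted p = 0.0499), and no other member count moved by over 1.5 times.

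With 2 libraries a group, small changes were near the limit of detection, and PSMB9 at day 7 was limited by counts of 5 to 13. Day contrasts depend on the scaling, and the spread differed between the days.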
